A study of Homo sapiens with 9 samples.

Results

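Gene expression of MG-63 cells grown on Ti6Al4V carrying TiB2 was compared with that of the same line on bare Ti6Al4V. The comparison took the 3 libraries of each surface, 6 of the 9 in the series, and every gene with enough counts to be tested, 20152 of the 36385 in the deposited table. MG-63 is an established human osteosarcoma line that is often used as a stand-in for osteoblasts. Ti6Al4V is a titanium alloy with aluminium and vanadium used for bone implants, and TiB2 is the formula of titanium diboride, a hard ceramic. The 3 remaining libraries came from boronized Ti6Al4V with HA, called the HA coating below.

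All groups were kept in DMEM with serum and osteogenic supplements, namely dexamethasone at 100 nM, ascorbic acid at 50 µg/mL and beta-glycerophosphate at 10 mM, and RNA was taken on day 7. The labels mark the TiB2 libraries as not used in the study's final analysis, and how the TiB2 surface was made is not given in the sources used here. Whether replicates were grown as independent cultures is not stated in the labels. The p-values therefore reflect only how far these libraries scatter, and that scatter may be technical. All of them came from a single cell line and carry the same batch label.

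Osteoblasts build bone by secreting type I collagen and smaller matrix glycoproteins, and then mineralize that matrix with the help of alkaline phosphatase. NF-kB is a family of transcription factors that is held inactive by inhibitor proteins and, once released, switches on cytokines, chemokines and the genes of its own inhibitors. Interferon-stimulated genes are antiviral genes that STAT and IRF factors drive through a different promoter element. SREBP factors drive the enzymes of cholesterol and fatty acid synthesis, and NRF2 drives genes that keep the cell's thiols reduced.

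Bare alloy replicate 1 stood apart from the other libraries. Rows of ribosomal DNA took 6.48% of its counts, while the other bare alloy libraries had 1.07% and 0.617% and those on TiB2 0.138% to 0.155%. Of the genes with at least 20 counts in some of the 6 libraries and at most 3 in all the others, 64 were absent only in bare alloy replicate 1 and 40 were present only there, out of 268 for any split, and 22 of the 40 were small structural RNAs. CD3E, which T cells use in antigen receptor signalling, had a level of 0, 1.61 and 1.5 CPM (a count scaled to library size by TMM) on bare alloy and 1.66, 2.47 and 2.38 CPM on TiB2. The HA coating libraries were at 0 for CD3E as well. Of the 64 genes, 17 had at most 3 counts in all 3 HA coating libraries and 5 had at least 20 in all 3. Of the 40 genes, 14 had at most 3 counts in all 3 HA coating libraries and 5 had at least 20. The 17 T cell markers in the table summed to 3.86 CPM in bare alloy replicate 1, at most 17.0 CPM on bare alloy and 20.7 to 22.3 CPM on TiB2. ENPEP, a peptidase chosen after its values were seen, had 1.86 CPM in bare alloy replicate 1 and 1.69 to 1.85 CPM on the HA coating, and no count in the other 5 libraries of the comparison. Many results below are therefore given also without bare alloy replicate 1. A result given with all 6 libraries alone may also change without that library. What sets that library apart, its cells or its label included, was not tested.

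Totals were 58464306 to 63122541 counts per library on bare alloy and 62951461 to 63413815 on TiB2, and the limit for a gene with no count was 3 counts, or 0.0473 to 0.0513 CPM by library, for counting error only. VIM, COL1A1, COL1A2, COL3A1 and SPARC, the mesenchymal and osteoblast markers of the line, were between 956 and 7169 CPM in all 6 libraries, while RUNX2 (2.07 to 4.16 CPM) and BGLAP (0.14 to 0.266 CPM) were low. The 16 markers of macrophages and osteoclasts summed to 79.5 to 90.6 CPM on bare alloy and 89.7 to 108 CPM on TiB2, with LYZ, C1QB, C1QC and CD163 at no more than 3 counts in any library.

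The response to TiB2 was wide and close to even in direction, with 25.1% of tested genes called. At an adjusted p under 0.05 by edgeR's quasi-likelihood test, 2594 genes were higher on TiB2 (12.9% of those tested) and 2465 were lower (12.2%). Most changes were small, with a median of 1.57-fold among the genes called. Changes of at least 2-fold numbered 576 up (2.86% of tested genes) and 852 down (4.23%), those of at least 4-fold 179 up (0.888%) and 245 down (1.22%), and those of at least 8-fold 79 up (0.392%) and 111 down (0.551%). The libraries of the surfaces did not overlap for 42.1% of all tested genes and for 99.5% of those called. Where a called gene is said below not to overlap, this therefore adds little to its call. Without bare alloy replicate 1, 2119 genes were higher (10.1%) and 2092 lower (9.96%), together 20.1% of 21002 tested. All 5059 genes called kept their direction without that library, and 3936 of them (77.8%) also kept their call. The first principal component, which held 46.1% of the variance of the log levels, parted the surfaces, and the second (17.4%) parted bare alloy replicate 1 from the other bare alloy libraries.

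**Figure D1:**
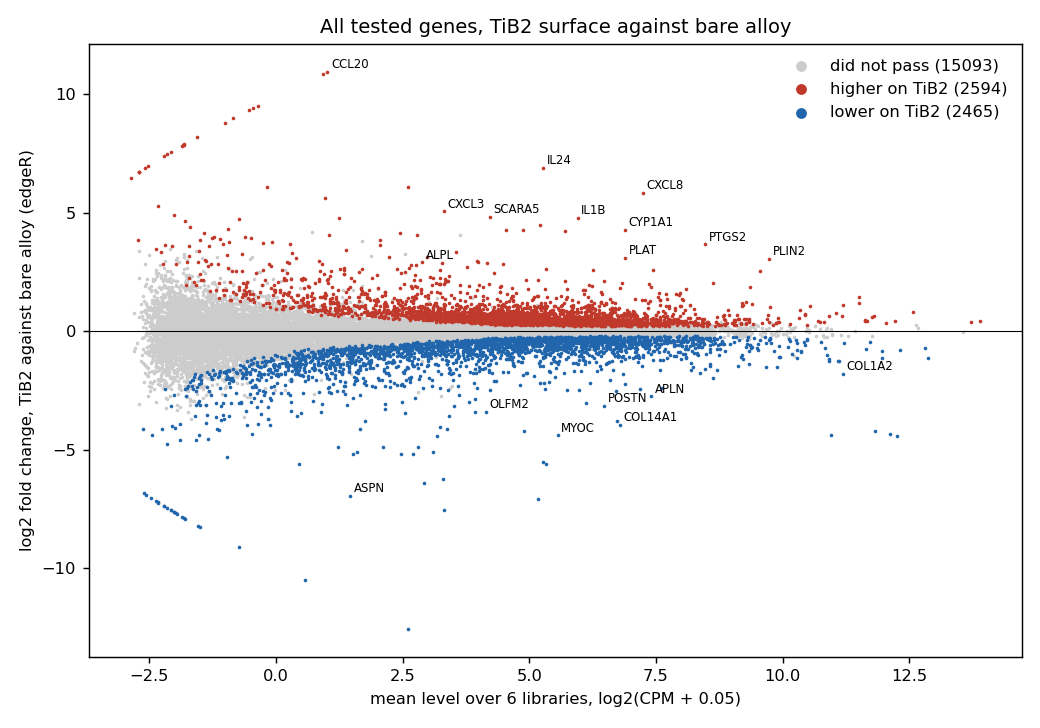
Each point is a tested gene, with its mean level over the 6 libraries on a log2 scale across and its edgeR log2 fold change, TiB2 against bare alloy, upward; red points passed the test as higher (2594), blue as lower (2465) and grey did not pass. Inflammatory genes, CYP1A1 and PLIN2 lead the rises among well expressed genes, and the rows near a log2 change of -4 at the far right are ribosomal DNA; the diagonal lines of points at the far left are genes with no count on a surface, whose fitted change depends on a prior count.

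The steepest rises were those of inflammatory signalling genes. IL24 (ENSG00000162892, chromosome 1, 206897443 to 206904139), a cytokine of the IL-10 family, had 0.638, 0.641 and 0.658 CPM on bare alloy and 96.3, 55.6 and 78.6 CPM on TiB2. Its log2 fold change was 6.89 ± 0.23 (SE; edgeR adjusted p = 3.09e-07), and no library of a surface came near the other surface. CXCL8 (ENSG00000169429, chromosome 4, 73740519 to 73743715), the chemokine that draws neutrophils, had 4.61, 5.74 and 5.22 CPM on bare alloy and 377, 140 and 373 CPM on TiB2 (5.83 ± 0.38, adjusted p = 1.13e-05). IL6 (ENSG00000136244), which drives the acute phase response, had 3.10, 2.71 and 3.74 CPM on bare alloy and 89.2, 39.5 and 82.8 CPM on TiB2 (4.47 ± 0.30, adjusted p = 1.42e-05). In each of these genes TiB2 replicate 2 was the lowest of its group and still many times above every bare alloy library.

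Of the 33 NF-kB and inflammatory genes tested, 29 were higher (87.9%, against 12.9% of all genes tested) and none lower, with a median log2 fold change of 2.13 that was 2.33 without bare alloy replicate 1. The median over all tested genes was 0.00. Among secreted factors, IL1B, an early inflammatory cytokine, went from 3.47 to 5.16 CPM on bare alloy to 58.6 to 151 CPM on TiB2 (4.78 ± 0.36, adjusted p = 2.43e-05), and LIF, a cytokine of the IL-6 family, rose by 2.56 ± 0.14 on the log2 scale. The neutrophil chemokines CXCL3 (5.06), CXCL1 (4.27) and CXCL6 (4.26) rose together, although CXCL1, CXCL2 and CXCL3 are near-identical copies whose separate values are uncertain, as it is unknown how reads matching more than one copy were counted.

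The genes that restrain NF-kB were higher too. NFKBIA, which encodes the inhibitor IkB-alpha, had 17.8, 18 and 20.9 CPM on bare alloy and 53.1, 47.6 and 59.5 CPM on TiB2 (1.5 ± 0.11, adjusted p = 1.95e-05). TNFAIP3, the ubiquitin-editing enzyme A20, rose by 1.40 ± 0.16 on the log2 scale (adjusted p = 0.000278). Among effectors, PTGS2, the inducible cyclooxygenase of prostaglandin synthesis, had 50.8, 50.1 and 54.1 CPM on bare alloy and 755, 385 and 830 CPM on TiB2 (3.67 ± 0.25, adjusted p = 1.54e-05). PLA2G4A, the phospholipase that frees arachidonic acid for that enzyme, rose 3.00-fold (1.59 ± 0.13), and ICAM1, the leukocyte adhesion molecule, 4.37-fold. The 4 list members that did not pass were CCL5 (-0.22), CCL7 (0.45), IL11 (0.01) and VCAM1 (-0.58).

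Several cytokine genes had no count at all on bare alloy. CCL20, a chemokine for lymphocytes and dendritic cells, had 0 counts in all 3 bare alloy libraries and 291, 102 and 365 counts on TiB2, at least 80.7-fold higher when the floor is taken as 3 counts per library. CSF2, which encodes GM-CSF, had 331, 143 and 238 counts on TiB2 (at least 75.8-fold higher) and CSF3, which encodes G-CSF, had 162, 37 and 83 (at least 30.0-fold higher). The same pattern held for IL20 (at least 27.9-fold), IL19 (at least 18.2-fold) and the eosinophil chemokine CCL11 (at least 11.9-fold). All of them passed the edgeR test, with adjusted p from 8.29e-05 to 0.00147.

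The promoters of the called genes of the NF-kB and inflammatory list were searched for a motif. A kappa-B type motif, GGNNNTTCC or its reverse complement GGAANNNCC, was present in the 250 bases before the RefSeq start of 17 of the 24 called NF-kB list genes with a promoter entry (70.8%), against 20.2% of 27305 genes with an entry. CXCL8 and IL6 are shown as RefSeq sequence of GRCh38.p14, plus strand, chr4:73740319-73740568 and chr7:22726950-22727199, with the motif in capitals. The motif begins 91 bases before the start of CXCL8 and 72 bases before that of IL6.
CXCL8: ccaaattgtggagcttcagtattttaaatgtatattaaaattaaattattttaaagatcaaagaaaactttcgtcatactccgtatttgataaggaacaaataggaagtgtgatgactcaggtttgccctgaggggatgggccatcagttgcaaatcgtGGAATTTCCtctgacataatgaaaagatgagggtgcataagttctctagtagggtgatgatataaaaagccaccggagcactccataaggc
IL6: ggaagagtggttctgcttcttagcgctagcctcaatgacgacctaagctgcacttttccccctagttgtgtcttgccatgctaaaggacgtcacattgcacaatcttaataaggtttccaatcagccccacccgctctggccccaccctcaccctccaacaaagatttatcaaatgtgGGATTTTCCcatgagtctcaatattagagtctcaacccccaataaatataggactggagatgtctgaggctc
The list was composed of genes known for NF-kB and inflammation, so a high share largely follows from that choice and is no result about TiB2. A match of letters describes the window and does not show that a factor binds there. IL24, IL1B and PTGS2 had no match in this window.

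Interferon-stimulated genes went the other way. Of the 30 tested, 25 were lower on TiB2 (83.3%, against 12.2% of all genes) and none higher, with a median log2 fold change of -0.77, and 22 were lower without bare alloy replicate 1. ISG15 (ENSG00000187608), a ubiquitin-like protein attached to other proteins after interferon, had 310, 288 and 273 CPM on bare alloy and 90.3, 72.7 and 114 CPM on TiB2 (-1.66 ± 0.14, edgeR adjusted p = 5.55e-05). IFI6, an interferon-induced mitochondrial protein, had 438, 584 and 563 CPM on bare alloy and 190, 138 and 205 CPM on TiB2 (-1.57 ± 0.16, adjusted p = 0.000118). IFI44L showed the largest fall of the list, from 577 to 696 CPM down to 126 to 202 CPM (-1.98 ± 0.16), and the antiviral GTPase MX1 fell by 1.10. IRF1 (0.22) and GBP1 (-0.13) did not pass.

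A motif of the interferon-stimulated response element, GAAA followed by any 2 bases and GAAA again, was read on both strands. It was present in the promoters of 13 of 18 lower interferon genes with an entry (72.2%), against 3.71% of the 27305 genes. This list was composed of genes known to respond to interferon, so its share too largely follows from that choice and is no result about TiB2. IFI6 (minus strand, chr1:27672193-27672442) holds the motif 3 times and ISG15 (plus strand, chr1:1013247-1013496) holds 2 overlapping matches, in capitals below, again RefSeq sequence of GRCh38.p14.
IFI6: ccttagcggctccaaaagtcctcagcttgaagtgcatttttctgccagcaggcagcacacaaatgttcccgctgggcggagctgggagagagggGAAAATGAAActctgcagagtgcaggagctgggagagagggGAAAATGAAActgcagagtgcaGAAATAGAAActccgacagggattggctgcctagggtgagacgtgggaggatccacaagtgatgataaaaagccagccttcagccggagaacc
ISG15: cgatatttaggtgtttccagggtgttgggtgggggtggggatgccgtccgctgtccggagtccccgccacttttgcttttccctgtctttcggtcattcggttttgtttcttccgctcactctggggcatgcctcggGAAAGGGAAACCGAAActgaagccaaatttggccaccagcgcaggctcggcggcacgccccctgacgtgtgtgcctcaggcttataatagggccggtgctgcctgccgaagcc
The chemokines CXCL10 (2.81 ± 0.41) and CXCL11 (1.44), which interferon also induces, rose with the NF-kB genes, although CXCL11 lost its call in 4 of the 6 cases with a library left out. Antigen presentation genes fell in part: 8 of 20 class I genes were lower (40.0%, against 12.2% of all genes) and 2 higher (10.0%, near the 12.9% of all genes). B2M, the light chain of class I molecules, had 5148, 5563 and 4556 CPM on bare alloy and 2890, 2409 and 3140 CPM on TiB2 (-0.86 ± 0.13, edgeR adjusted p = 0.00125). HLA-B (-0.72) and HLA-C (-0.82) fell as well, but they are close copies of each other and their values are uncertain. Of 18 complement genes 8 were lower (44.4%, against 12.2% of all genes; 5 without bare alloy replicate 1), among them the inhibitors SERPING1 (-1.41) and CLU (-1.45), and 2 were higher (11.1%, against 12.9% of all genes), including the central component C3 (1.31).

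**Figure D2:**
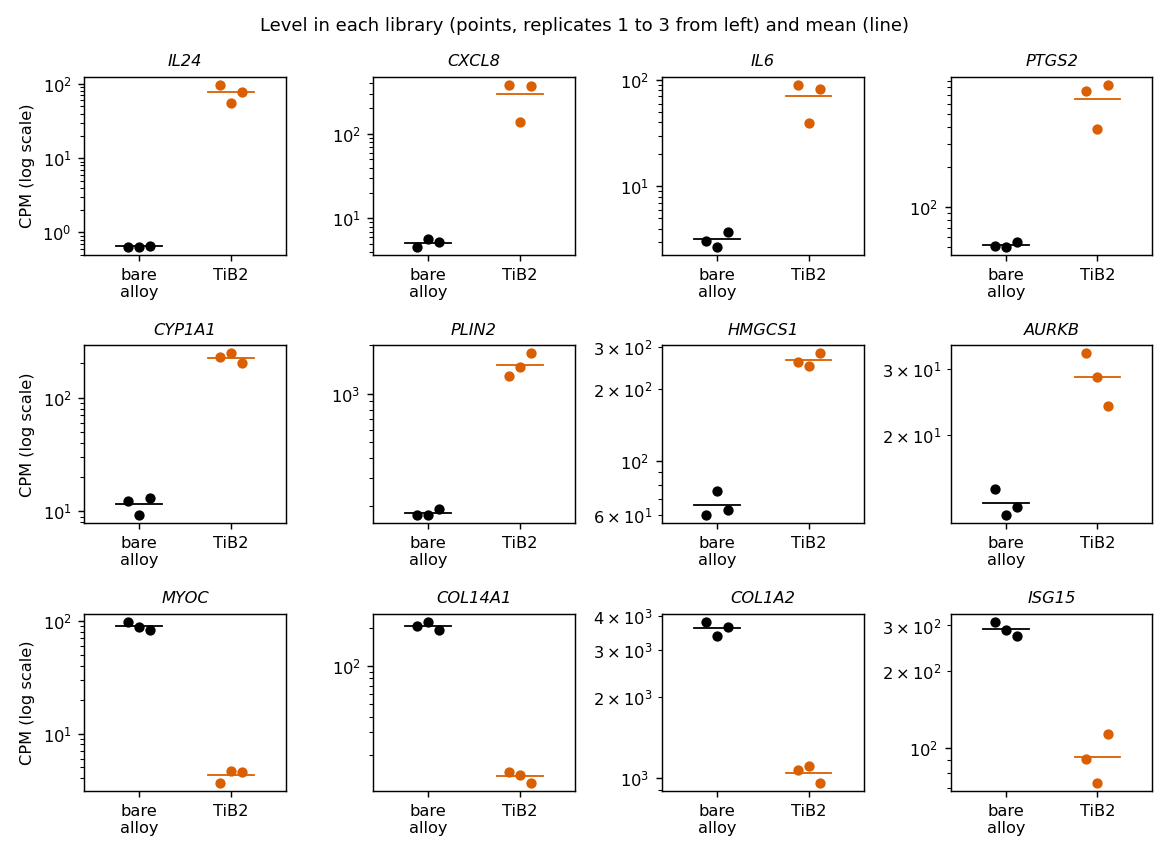
Level in each library (points, replicates 1 to 3 from left to right) and group mean (line) of 12 genes, in CPM on log axes that differ between panels and do not start at 0. In all 12 panels the 3 TiB2 libraries lie wholly above or wholly below the 3 bare alloy libraries.

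Cell cycle genes were higher on TiB2 almost throughout their lists. Of 27 genes of G2 and M phase 26 were higher (96.3%) and none lower, with a median log2 fold change of 0.89 (0.90 without bare alloy replicate 1). AURKB, a kinase of chromosome segregation, had 14.4, 12.3 and 12.9 CPM on bare alloy and 32.9, 28.5 and 23.9 CPM on TiB2 (1.10 ± 0.13, edgeR adjusted p = 0.00032). The spindle checkpoint kinase BUB1B rose 2.27-fold and the proliferation marker MKI67 1.68-fold. The groups did not overlap in any of these 3 genes. Of 27 genes of G1 and S phase 25 were higher (92.6%, and 21 genes without bare alloy replicate 1), with a median of 0.72. They were led by the replication licensing factor CDT1 (1.19 ± 0.14) and by E2F2 (1.39 ± 0.27), a transcription factor of S phase entry.

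Replication-dependent histone genes moved against that direction. Of 17 tested, 10 were lower on TiB2 (58.8%, against 12.2% of all genes) and none higher. Their median of -1.07 was -0.77 without bare alloy replicate 1, when 9 were lower. H2AC6 had 63.5, 63.9 and 63.6 CPM on bare alloy and 16.3, 18.2 and 24.8 CPM on TiB2 (-1.69 ± 0.14, edgeR adjusted p = 4.84e-05), and H2BC21 had 14.4, 16.9 and 12.9 CPM against 4.39, 4.54 and 3.84 CPM (-1.79 ± 0.15). Both were as far apart in bare alloy replicates 2 and 3 as in replicate 1. Transcripts of these genes largely lack a poly(A) tail, as do ribosomal and small structural RNAs. The 47 structural rows tested outside the mitochondrial genome held 15 lower and none higher, where 12.2% of all genes were lower. Without bare alloy replicate 1, 8 of these rows were lower. RN7SK, a small nuclear RNA, had 214, 1.41 and 0.444 CPM on bare alloy and 0.536, 0.247 and 0.825 CPM on TiB2, so its fitted fall rests on 1 library. RMRP, RNA5-8SN1, RNA5-8SN3 and RN7SL3 likewise stood high in bare alloy replicate 1 alone and lost their call without it. The part of such RNAs in the histone values was not tested.

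**Figure D3:**
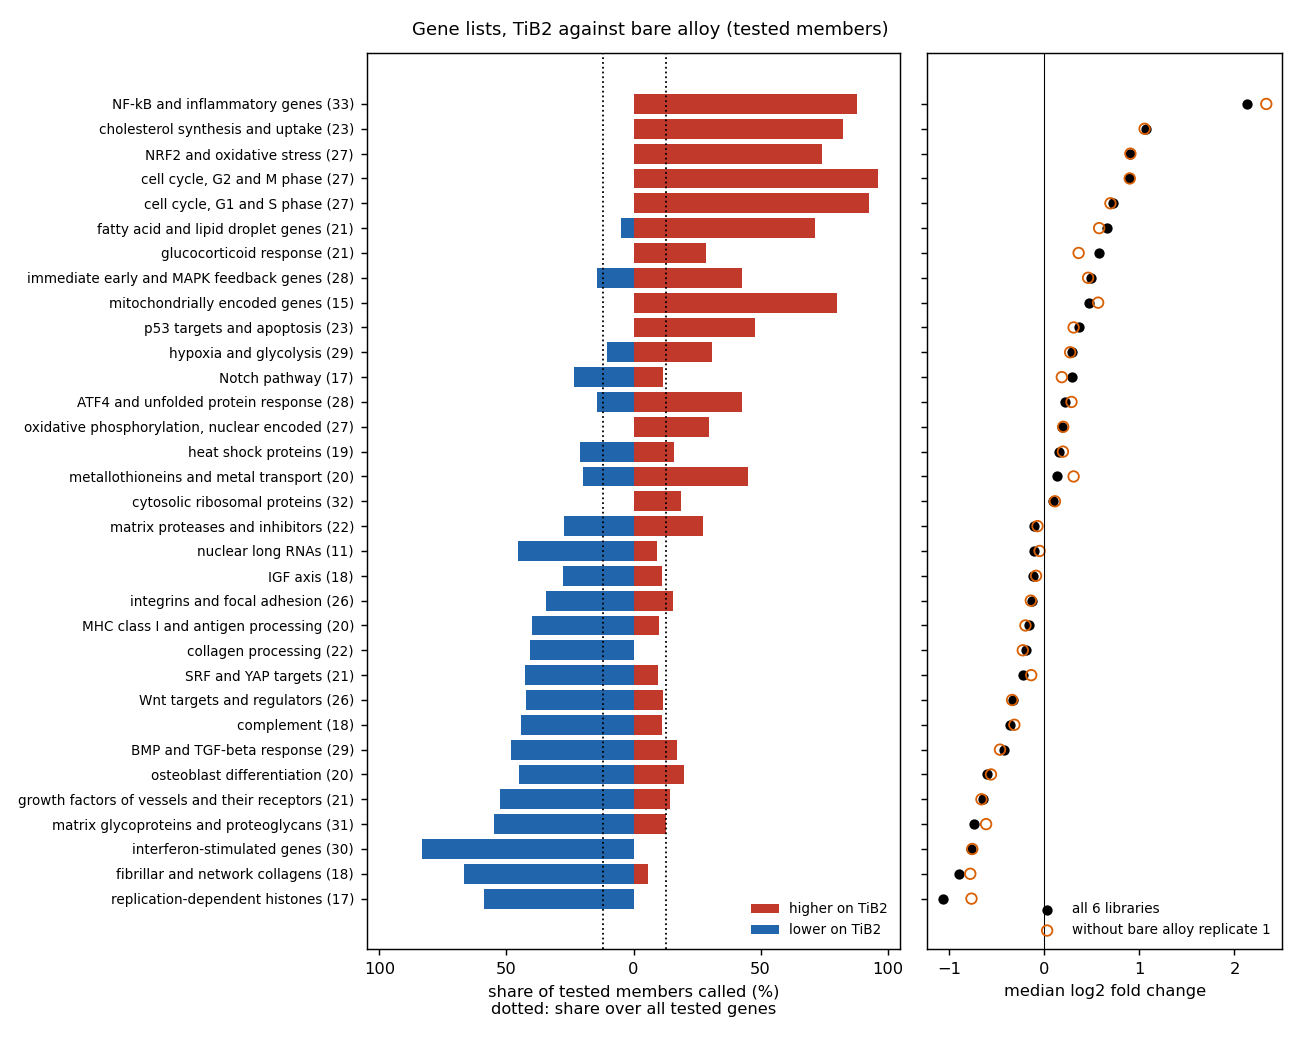
For 33 gene lists, with the number of tested members in brackets, the left panel gives the share of members called higher (red, to the right) or lower (blue, to the left) on TiB2, with dotted lines at the shares over all tested genes (12.9% and 12.2%). The right panel gives the median log2 fold change with all 6 libraries (filled) and without bare alloy replicate 1 (open); the NF-kB list is at the top, and collagens, interferon genes and histones at the bottom.

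Cholesterol synthesis genes rose along most of the pathway. Of 23 genes tested 19 were higher (82.6%) and none lower, with a median log2 fold change of 1.07 (1.05 without bare alloy replicate 1). HMGCS1 (ENSG00000112972), the synthase at the head of the mevalonate pathway, had 59.7, 75.5 and 62.8 CPM on bare alloy and 258, 250 and 281 CPM on TiB2 (1.99 ± 0.10, edgeR adjusted p = 2.84e-06). The surfaces did not overlap. Further down, FDPS rose by 1.62, SQLE by 1.33, CYP51A1 by 1.30 and EBP by 1.63 on the log2 scale. PMVK (-0.15), TM7SF2 (-0.02) and SC5D (0.22) did not pass. A sterol regulatory motif, TCACNCCAC or its reverse complement GTGGNGTGA, was found in the promoter window of 1 of the 15 higher genes with an entry (6.7%, against 1.09% of the 27305 genes), and HMGCS1, FDPS, CYP51A1 and EBP had no match.

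Fatty acid and lipid droplet genes were higher for 15 of 21 members (71.4%, against 12.9% of all genes) and lower for 1, SREBF1 (-0.32). PLIN2 (ENSG00000147872, chromosome 9, 19108375 to 19149290), the coat protein of lipid droplets, was among the most abundant risers, at 177, 177 and 192 CPM on bare alloy and 1290, 1474 and 1784 CPM on TiB2 (3.06 ± 0.13, edgeR adjusted p = 9.45e-07). FABP3, a fatty acid carrier, went from 5.09 to 5.65 CPM up to 35.3 to 44.9 CPM (2.83 ± 0.12), and the fatty acid receptor CD36 rose by 2.03 ± 0.27. The synthesis genes moved less: FASN rose by 1.08, SCD by 0.91, FADS1 by 1.06 and FADS2 by 0.98, while the elongase ELOVL2 rose by 2.13 ± 0.07. The median of the list was 0.65, and its lowest member, PPARGC1A, did not pass (-1.43, adjusted p = 0.063).

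CYP1A1 (ENSG00000140465, chromosome 15, 74719542 to 74725536), a cytochrome P450 known as a target of the aryl hydrocarbon receptor, had 12.3, 9.28 and 13.0 CPM on bare alloy and 227, 244 and 201 CPM on TiB2 (4.28 ± 0.14, edgeR adjusted p = 3.09e-07). The scavenger receptor SCARA5 had 0.966, 1.49 and 1.35 CPM against 46.2, 30.5 and 30.8 CPM (4.81 ± 0.22, adjusted p = 2e-06). The 3 libraries of each surface lay close together in both genes, and the gap between surfaces was far wider than either spread. RPLP0P2, a processed pseudogene, rose by 4.24 ± 0.13, but its near-identical parent RPLP0, at 1498 to 2142 CPM, rose by 0.38, and how reads were shared between them is unknown.

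Of 27 NRF2 and oxidative stress genes 20 were higher on TiB2 (74.1%) and none lower, with a median of 0.90 with and without bare alloy replicate 1. NQO1, a quinone reductase, had 112, 126 and 115 CPM on bare alloy and 317, 287 and 306 CPM on TiB2 (1.36 ± 0.07, edgeR adjusted p = 4.07e-06). GCLM, a subunit of the enzyme that starts glutathione synthesis, rose by 1.46, the cystine transporter SLC7A11 by 1.22 and TXNRD1, which reduces thioredoxin, by 1.19. Of the pentose phosphate pathway, a source of NADPH, 3 genes named for their role in it were higher, with PGD at 1.61 ± 0.08, TKT at 1.25 and TALDO1 at 0.79. HMOX1, chosen after its values were seen, had 94.8, 16.1 and 19.3 CPM on bare alloy and 66.6, 52.0 and 49.3 CPM on TiB2. It did not pass with all libraries (0.36 ± 0.56, adjusted p = 0.694) and rose by 1.65 without bare alloy replicate 1 (adjusted p = 0.000126), while the HA coating libraries had 88.9 to 100.3 CPM.

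Metal handling genes were split. Of 20 tested 9 were higher (45.0%, against 12.9% of all genes) and 4 lower (20%, against 12.2%). The metalloreductase STEAP4 rose by 2.61 ± 0.17 and the zinc and manganese importer SLC39A8 by 1.64 ± 0.20, while the metallothionein MT1E, which binds zinc and copper, fell from 46.6, 33.9 and 30.6 CPM to 11.9, 13.5 and 16.5 CPM (-1.41 ± 0.17, edgeR adjusted p = 0.00046). Metallothionein genes are near-identical copies, so the value of MT1E alone is uncertain. SOD2, the manganese superoxide dismutase of mitochondria and also an NF-kB target, had 217, 231 and 214 CPM against 1522, 982 and 1355 CPM (2.54 ± 0.15, adjusted p = 6.28e-06). Of 23 p53 target and apoptosis genes 11 were higher (47.8%) and none lower, with 8 higher without bare alloy replicate 1. The stress cytokine GDF15 led (1.87 ± 0.17), whereas CDKN1A, the p21 cell cycle inhibitor, did not pass (-0.08 ± 0.11).

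Of 15 listed genes encoded in mitochondrial DNA, 12 were higher and none lower, against 12.9% and 12.2% of all genes. Their median was 0.47, and the lowest member, at -1.06, did not pass. Of all 37 tested genes on mitochondrial DNA, 16 were higher (43.2%) and none lower, with a median of 0.36. MT-ND4, a subunit of complex I, had 4742, 4190 and 4240 CPM on bare alloy and 8229, 7380 and 7443 CPM on TiB2 (0.81 ± 0.11, edgeR adjusted p = 0.000647). Of 27 nuclear genes of oxidative phosphorylation 8 were higher (29.6%, against 12.9% of all genes) and none lower. Their median was 0.19, and 4 were higher without bare alloy replicate 1. Mitochondrial rows took 4.01% to 5.00% of counts on bare alloy and 5.93% to 6.33% on TiB2. Of 29 hypoxia and glycolysis genes 9 were higher (31.0%, against 12.9% of all genes), including hexokinase HK2 (1.36 ± 0.09), and 3 were lower (10.3%, near the 12.2% of all genes; 2 without bare alloy replicate 1).

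Most collagen genes were lower on TiB2. Of 18 collagen genes 12 were lower (66.7%, against 12.2% of all genes) and 1 was higher, COL4A2 (0.37, lost in 4 of the 6 cases with a library left out), with a median of -0.89 (-0.78 without bare alloy replicate 1). COL1A2 (ENSG00000164692), a chain of type I collagen, had 3806, 3358 and 3642 CPM on bare alloy and 1069, 1110 and 956 CPM on TiB2 (-1.79 ± 0.10, edgeR adjusted p = 5.54e-06). COL14A1, whose collagen sits on the surface of type I fibrils, had 208, 223 and 191 CPM against 14.7, 13.9 and 11.9 CPM (-3.94 ± 0.10, adjusted p = 1.44e-07). The surfaces did not overlap in either gene, as in 99.5% of all called genes. COL3A1 fell by 0.72, COL5A2 by 0.87, COL5A3 by 2.42 and COL12A1 by 1.32, while COL6A1 (-0.17) and COL6A2 (0.00) did not pass.

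Of 22 collagen processing genes 9 were lower (40.9%, against 12.2% of all genes) and none higher. They were led by ADAMTS14 (-1.22 ± 0.14) and TLL1 (-1.16 ± 0.24), which cut the ends of procollagen, and by their helper PCOLCE (-0.85 ± 0.11). The crosslinking enzyme LOX (0.24) did not pass. Of 31 other matrix glycoproteins and proteoglycans 17 were lower (54.8%, against 12.2% of all genes) and 4 higher (12.9%, as for all genes). Their median was -0.74 (-0.61 and 15 lower without bare alloy replicate 1). It was -0.37 at a mean FPKM of at least 5 and -0.27 by limma on log2(FPKM + 1). POSTN, which encodes periostin of bone and tendon surfaces, had 158, 167 and 155 CPM on bare alloy and 19.8, 18.2 and 16.4 CPM on TiB2 (-3.14 ± 0.09, edgeR adjusted p = 1.44e-07). TNC, which encodes tenascin C, fell by 2.40 ± 0.18 and FN1, which encodes fibronectin, by 1.27 ± 0.14. The leucine-rich proteoglycans were not uniform, since ASPN went from 4.72 to 5.99 CPM on bare alloy to 0 to 0.126 CPM on TiB2, 972 counts in all against 8, a count ratio of 127 with a counting interval of 64.1 to 294, and BGN fell by 1.01, while LUM rose by 0.81 and DCN did not pass (-0.19). THBS1, which encodes thrombospondin 1, rose by 1.05 and its relative THBS2 fell by 1.5.

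Proteases and their inhibitors moved in both directions, 6 of 22 up (4 without bare alloy replicate 1) and 6 down, each 27.3% of the list against 12.9% and 12.2% of all genes. PLAT, the tissue plasminogen activator, had 23, 27.3 and 24 CPM on bare alloy and 252, 182 and 205 CPM on TiB2 (3.10 ± 0.13, edgeR adjusted p = 9.2e-07). TIMP3, an inhibitor of metalloproteinases held in the matrix, had 136, 115 and 119 CPM against 15.6, 15.4 and 14.8 CPM (-3.02 ± 0.09, adjusted p = 1.44e-07). MMP1, the interstitial collagenase, rose by 2.25 ± 0.25 and MMP2, the gelatinase, fell by 1.13 ± 0.10. The median of this list lay near 0 and its sign depended on the setting.

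The 15 largest falls chosen by the naming rule were led by MYOC. This gene, for an extracellular glycoprotein best known from the eye, had 98.7, 88.0 and 82.6 CPM on bare alloy and 3.61, 4.65 and 4.58 CPM on TiB2 (-4.39 ± 0.13, edgeR adjusted p = 1.44e-07). ITGBL1, an integrin beta-like secreted protein, had 52.6, 56.2 and 59.2 CPM against 2.95, 3.21 and 2.93 CPM (-4.21 ± 0.10). CCN4, a matricellular target of Wnt signalling, had 196, 175 and 219 CPM against 9.51, 19.3 and 14.5 CPM (-3.77 ± 0.23). Replicates varied little beside these gaps. OLFM2 (-3.39), the chemokine scavenger ACKR4 (-3.16), the peptide hormone APLN (-2.74), NPTX1 (-2.53), PPP1R3C (-2.49), the non-coding DNM3OS (-2.48), the urea transporter SLC14A1 (-2.48) and the carboxypeptidase CPE (-2.42) completed the 15 largest. None of the 30 largest rises and falls lost its call when a library was left out. Among genes of at least 100 FPKM, CAV1, the coat protein of caveolae, had 636, 643 and 612 CPM against 207, 199 and 201 CPM (-1.64 ± 0.07).

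Among the 8 osteogenic genes, ALPL rose, COL1A1 and SPARC fell, and the rest were small, unstable or too low. ALPL (ENSG00000162551, chromosome 1, 21509397 to 21578410), tissue-nonspecific alkaline phosphatase, had 1.89, 1.10 and 2.17 CPM on bare alloy and 16.3, 11.5 and 11 CPM on TiB2 (2.91 ± 0.27, edgeR adjusted p = 8.45e-05). COL1A1 (ENSG00000108821, chromosome 17, 50184101 to 50201632) had 3390, 2521 and 3238 CPM against 1272, 1388 and 1216 CPM (-1.24 ± 0.13, adjusted p = 0.00014). SPARC, the matrix protein osteonectin, fell by 0.74 ± 0.10 (adjusted p = 0.00076). RUNX2, the master regulator of osteoblasts, had 2.68, 2.14 and 2.07 CPM against 3.42, 4.16 and 3.38 CPM (0.67 ± 0.20, adjusted p = 0.0373), a call lost in 5 of the 6 cases with a library left out, with log2 changes from 0.56 to 0.79.

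SPP1, which encodes osteopontin, had 51.7, 15.7 and 15.3 CPM on bare alloy and 16.0, 14.5 and 16.4 CPM on TiB2 (-0.82 ± 0.41, edgeR adjusted p = 0.183), so that bare alloy replicate 1 alone stood high, near the 45.9 to 49.5 CPM of the HA coating. Without that library the SPP1 change was 0.00 (adjusted p = 0.985). BGLAP, which encodes osteocalcin, did not pass (-0.16 ± 0.64, adjusted p = 0.886). For SP7, which encodes osterix, the bare alloy libraries held 24, 0 and 0 counts and the TiB2 libraries 12, 0 and 2, and IBSP had 4 counts in TiB2 replicate 1 and none elsewhere, both too few to test.

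Across 20 osteoblast differentiation genes 4 were higher (20%, against 12.9% of all genes) and 9 lower (45.0%, against 12.2%). Their median was -0.61, and -0.22 by limma on log2(FPKM + 1). Beside ALPL and RUNX2 the higher ones were BMP2, a bone morphogenetic protein (0.164, 0.188 and 0.329 CPM against 5.07, 1.75 and 4.67 CPM, 4.06 ± 0.47, edgeR adjusted p = 0.00031), and TNFRSF11B, the decoy receptor osteoprotegerin (165, 163 and 140 CPM against 715, 526 and 654 CPM, 2.01 ± 0.12). The lower ones included the matrix proteoglycan OGN (-3.49 ± 0.42), the homeobox factor DLX3 (-1.68), the phosphate regulator PHEX (-1.27) and the inhibitor TWIST1 (-1.14).

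In BMP and TGF-beta signalling more genes were lower than higher. BMP2 and the antagonist GREM1 (1.87 ± 0.13) rose, while the inhibitors of differentiation ID2 (-2.16 ± 0.17), ID3 (-0.64) and ID4 (-2.31 ± 0.16), which BMP signals induce, and the inhibitory SMAD6 (-1.05) and SMAD7 (-0.65) fell. In all 5 of 29 tested genes were higher (17.2%) and 14 lower (48.3%), against 12.9% and 12.2% of all genes, with a median of -0.42. Of 26 Wnt genes 11 were lower (42.3%) and 3 higher (11.5%, near the 12.9% of all genes, and 1 without bare alloy replicate 1), with a median of -0.33. The falling members were largely secreted regulators, DKK1 (-0.76), DKK2 (-2.70), SFRP1 (-0.76), SFRP2 (-1.51) and the deacylase NOTUM (-2.02), a call lost without bare alloy replicate 2, together with the targets CCN4 and CCN5 (-1.62). The feedback target AXIN2 did not pass (0.24).

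Of 21 growth factors of vessels and their receptors 11 were lower (52.4%, against 12.2% of all genes). The 3 higher (14.3%) were near the 12.9% of all genes. PDGFD, a platelet-derived growth factor, had 11.8, 10.3 and 9.58 CPM on bare alloy and 0.852, 1.33 and 0.732 CPM on TiB2 (-3.44 ± 0.24, edgeR adjusted p = 1.68e-05), and its receptor gene PDGFRB fell by 0.95. The VEGF receptor FLT1 (-2.55) and its ligand PGF (-1.87) fell, and VEGFA did not pass (0.29). The higher members were FGF2 (0.65), the keratinocyte growth factor FGF7 (1.53) and ANGPT1 (1.6). Among integrins, the collagen receptor ITGA11 (-1.16 ± 0.07) and ITGA8 (-1.48 ± 0.14) fell while ITGB3, a subunit of the vitronectin receptor, had 22.7, 16.4 and 17.6 CPM against 47.3, 49.1 and 48.5 CPM (1.35 ± 0.12, adjusted p = 7.6e-05). Of 17 Notch genes 2 were higher (11.8%, near the 12.9% of all genes), the ligand DLL1 (2.17 ± 0.16) and HES1 (0.83, a call lost without bare alloy replicate 3), and 4 lower (23.5%), led by the coactivator MAML2 (-1.80 ± 0.14).

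The deposited annotation was read across all terms with 10 to 200 tested genes, 3751 GO terms, 309 KEGG pathways and 2324 Reactome terms. Over all tested genes 12.9% were higher and 12.2% lower, the shares to set beside the term counts. The named terms are those at both ends of the order by median, which the measured values decide, so they are a description with no test. Their medians run from -1.30 to 3.78, and the middle term of each collection lies at 0.02 to 0.03. At the upper end of GO stood CXCR chemokine receptor binding (9 of 11 higher, 1 lower, median 3.70, and 0.92 by limma on log2(FPKM + 1)), sterol biosynthetic process (18 of 29 higher, 3 lower, 0.90) and mitotic spindle midzone assembly (8 of 11 higher, none lower, 0.78). Retinoic acid metabolic process was there too, with 6 of 13 higher and 3 lower (0.79, and 0.20 by limma on log2(FPKM + 1)). Its risers included the retinoic acid carrier CRABP2 (1.08) and the hydroxylase CYP2S1 (1.39).

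The lower end of GO held histone, interferon and collagen terms, such as response to interferon-beta (8 of 10 lower, 2 higher, -0.80), and also ephrin receptor and phospholipase C terms. All 7 of the 12 ephrin receptor genes that passed were lower (median -0.79), led by EPHA6 (-4.16, lost in 2 of the 6 cases with a library left out), EPHA3 (1.88, 1.30 and 1.73 CPM on bare alloy, 0.126, 0.185 and 0 CPM on TiB2, -3.95 ± 0.72, edgeR adjusted p = 0.00362) and EPHA4 (-1.78). The ephrin receptor median was -0.47 at a mean FPKM of at least 5 and -0.21 by limma on log2(FPKM + 1). Of 11 phospholipase C genes 4 were lower and 1 higher (-0.92), with PLCE1 at -1.73 and PLCB4 at -1.41. Without bare alloy replicate 2 the median of these phospholipase C genes was -0.41. It was -0.03 at a mean FPKM of at least 5 and -0.05 by limma on log2(FPKM + 1). Of 11 genes of collagen-activated receptor kinase signalling 5 were lower, including the collagen receptor DDR2 (738, 850 and 773 CPM against 351, 369 and 379 CPM, -1.10 ± 0.08), and 3 were higher. The median of that term, -0.90, was -0.06 by limma on log2(FPKM + 1). The term at the very bottom, innate immune response in mucosa, took its place mostly from histone H2B genes, with 6 of 11 lower (-1.30). Its median was -0.48 at a mean FPKM of at least 5.

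In KEGG the order ran from steroid biosynthesis (12 of 19 higher, none lower, median 0.78) and DNA replication (23 of 35 higher, 1 lower, 0.60) to systemic lupus erythematosus (31 of 74 lower, 6 higher, -0.74), a pathway whose leading falls were histone genes. Without bare alloy replicate 1 its lower genes numbered 21 and its median was -0.48. Viral protein interaction with cytokine and cytokine receptor held 25 higher and 5 lower of 54 (0.58). ECM-receptor interaction held 24 lower and 11 higher of 72 (-0.19), and 19 lower without bare alloy replicate 1. Its reelin gene RELN (-2.70 ± 0.28) and NPNT (-2.68 ± 0.35), an integrin ligand, fell beside TNC. Renin secretion held 18 lower and 6 higher of 51, led by the water channel AQP1, at 22.6, 15.3 and 13.9 CPM on bare alloy and 0.710, 0.927 and 0.778 CPM on TiB2 (-4.42 ± 0.23, edgeR adjusted p = 4.03e-06).

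In Reactome the term for inflammatory mediators under IL10 control led, with 13 of 16 higher, none lower and a median of 3.78 (1.71 by limma on log2(FPKM + 1), a scale that understates the change of low genes). Replication steps followed, with 15 of 19 genes of CDC45 joining the origin higher (0.72) and 8 of 10 genes of PCNA loading (0.62). The second place, phosphorylation of PLC-gamma1, held 2 higher and 2 lower of 16 (12.5% each, near the 12.9% and 12.2% of all genes). Its median of 0.77 was 0.21 without bare alloy replicate 1. Among its members LCK, CD3D and CD3E, all known from T cells, had at most 3 counts in that library. The lower end held histone terms, with ATF2 acetylation of H2B and H4 at 14 of 22 lower and a median of -1.25, and matrix terms, with FN1 binding to collagens at 8 of 14 lower and 2 higher (-0.80).

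**Figure D4:**
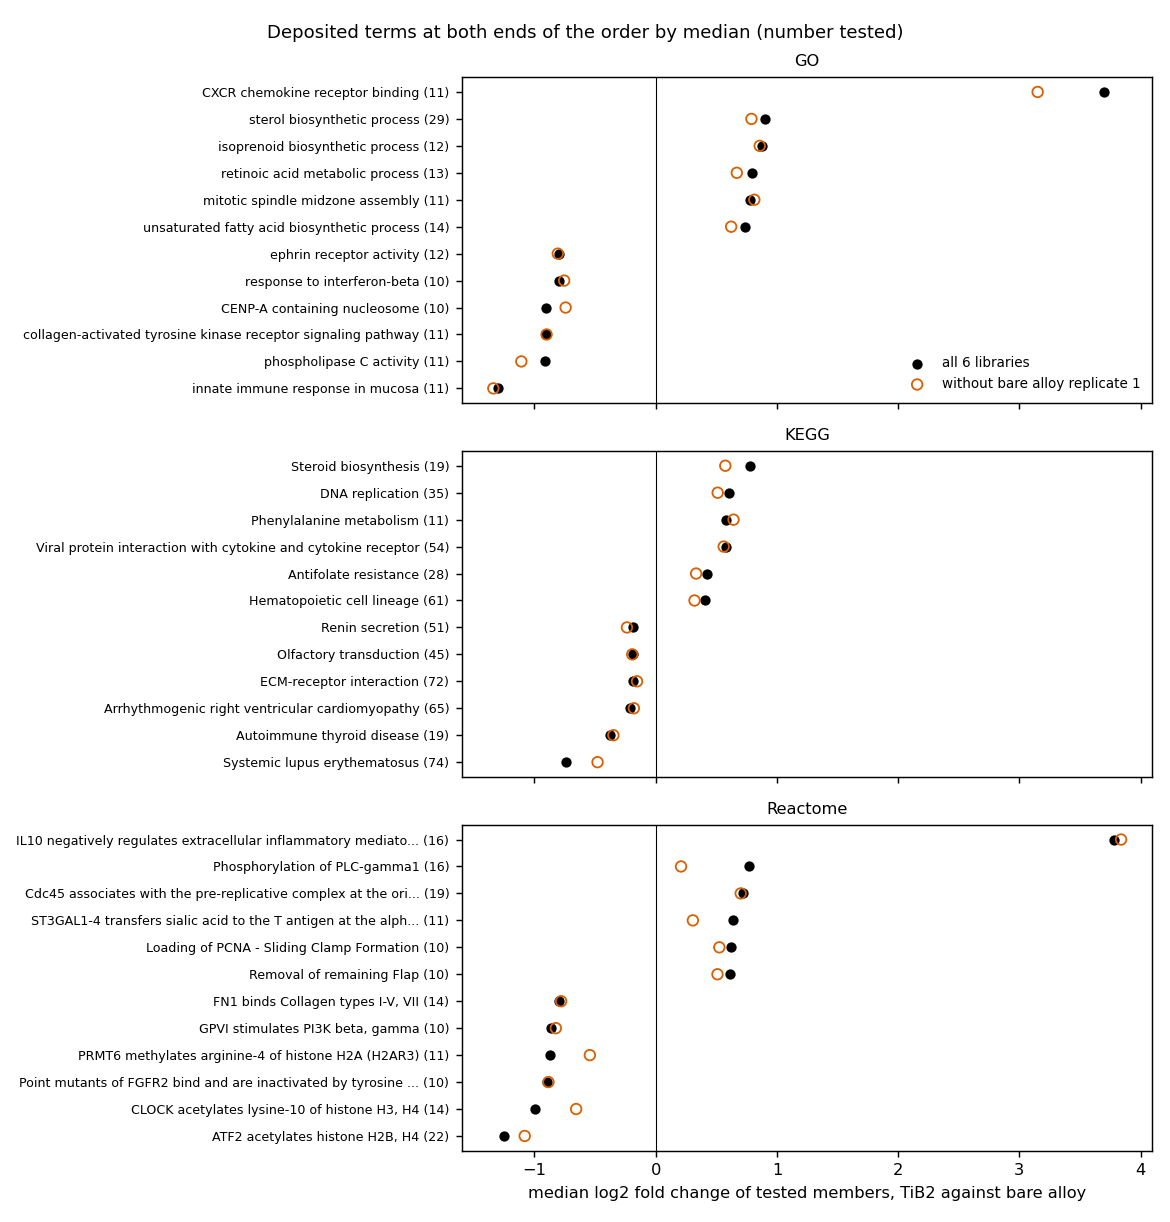
Median log2 fold change of the tested members (number in brackets) of the 6 highest and 6 lowest terms of GO, KEGG and Reactome, with all 6 libraries (filled) and without bare alloy replicate 1 (open). Chemokine terms stand apart at the right, near 3.7, and most other terms lie within about 1 log2 unit of 0; the PLC-gamma1 term moves furthest toward 0 among the Reactome risers without bare alloy replicate 1.

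Beyond the ends of the order, some broad KEGG pathways were uneven in direction, and those below are named as examples. Others were near even, such as mTOR signalling with 21 higher and 20 lower of 140 and animal autophagy with 18 and 18 of 131. Cell cycle held 46 higher and 6 lower of 119, p53 signalling 30 and 6 of 68, ferroptosis 18 and 4 of 37, glutathione metabolism 20 and 4 of 45, and the proteasome 17 and 1 of 43. NF-kappa B signalling held 30 higher and 8 lower of 89, and IL-17 signalling 28 and 5 of 74. On the falling side, axon guidance held 51 lower and 16 higher of 164, focal adhesion 43 and 17 of 181, and Wnt signalling 32 and 14 of 135. Over all tested genes 12.9% were higher and 12.2% lower, so the higher genes of these 3 pathways lay below the overall share. Without bare alloy replicate 1 the higher genes numbered 11 in axon guidance and 9 in Wnt signalling. They numbered 39 in cell cycle, 23 in p53 signalling and 12 in the proteasome. The medians of all these pathways lay between -0.14 and 0.30, so each change took in a part of its pathway.

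Some genes were expressed on a single surface of the pair compared. The rule was at least 20 counts in each library of a surface and at most 3 in each of the other. It gave 9 genes on bare alloy and 9 on TiB2. The HA coating was not part of this rule. Some of these genes were present there, such as TENM4 (69, 14 and 32 counts) and CSF2 (58, 38 and 70). Others were low there, such as APOD (0, 0 and 6 counts) and AOAH (0, 9 and 0). The bare alloy set held CDH18, a cadherin, with 149, 220 and 154 counts on bare alloy and none on TiB2 (at least 60.6-fold lower on TiB2), TENM4, an adhesion protein of osteoblasts and neurons (at least 23.2-fold lower), and the lipocalin APOD (at least 8.23-fold lower). On the TiB2 side stood the cytokine genes named above together with AOAH, which inactivates bacterial lipopolysaccharide (at least 9.48-fold higher), and UGT1A8, a glucuronosyltransferase that shares exons with its neighbours and is uncertain.

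Direct comparison with the HA coating showed where TiB2 differed from the other boron-treated surface. By edgeR's test on those 6 libraries, 36 of 20086 genes were higher on the HA coating (0.179%) and 91 lower (0.453%), together 0.632%. A gene that missed the threshold is not thereby shown to be alike on both surfaces. Of the T cell markers 4 were lower on the HA coating, and the list had a median of -2.75. Their part in the 91 genes was not tested. POSTN lay at 79.9, 87.9 and 84.7 CPM on the HA coating, 2.2 ± 0.16 above TiB2 on the log2 scale (adjusted p = 0.000795), and DKK2 1.91 ± 0.23 above (adjusted p = 0.00586). CYP1A1 lay lower on the HA coating than on TiB2 (log2 difference -1.65 ± 0.23, 49.2 to 86.7 CPM, adjusted p = 0.0115), and SCARA5 was lower there as well, at 6.82 to 11.4 CPM (adjusted p = 0.00787). MMP1 was higher on the HA coating, at 52.2, 65.1 and 205 CPM against 9.78 to 19.4 CPM on TiB2 (adjusted p = 0.0415). For IL24 the difference was 0.28 ± 0.24 (adjusted p = 0.651), for CXCL8 -0.25 ± 0.38 (adjusted p = 0.816), and for ISG15 1.44 ± 0.29 (adjusted p = 0.0694).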

How the data were processed

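RNA-seq libraries of MG-63 cells on 3 surfaces, 3 each, were deposited as 1 file covering 36385 Ensembl genes, which holds raw counts, FPKM values and GO, KEGG and Reactome columns. The authors' counts were used as deposited, and the deposited FPKM values served for level limits and an alternative test. Per the submitters' processing notes, the GRCh38 build, featureCounts 2.0.1, HISAT2 2.2.1, limma, cutadapt 2.10 and StringTie 2.1.4 were used, with no role given. The sources used here do not give strand use or the handling of multi-mapped reads. Near-identical, overlapping and antisense genes are therefore uncertain. Of deposited counts from 1 to 20, 55.5% were even. Whether both ends of some fragments were counted was not tested, and if so the limit of 3 counts, and each fold given as a lower bound from it, would rest on fewer fragments. The gene rows include ribosomal DNA rows, whose share is given per library.

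Sample titles gave the groups and the replicate numbers. Genes were kept by filterByExpr, scaled by TMM and tested in the 6 libraries of the comparison with the two-sided quasi-likelihood test of edgeR 4.0.16 in R 4.3.3, with Benjamini-Hochberg adjustment over all genes tested and a threshold of 0.05. SEs were obtained by dividing the absolute log2 fold change by the root of F from that test. Given levels are in CPM, scaled over all 9 libraries. Named genes were the 8 osteogenic genes, the 15 largest rises and falls at a mean FPKM of at least 5 with no overlap between surfaces, the 8 largest each way at 100 FPKM, up to 3 called members per gene list and up to 4 per named term. Some further list members are named for their place in a pathway. Named terms were the 6 at each end of each collection by median, leaving out terms that share over 50% of their genes with a term already taken. Members and lists were chosen with earlier results of these data known, so lists and terms have counts and medians and no test. A few genes had no count on a surface. With these at their lower bound, none of the 78 list and term medians moved. The heat shock, ATF4, glucocorticoid, immediate early, SRF and YAP, IGF, ribosomal protein and nuclear long RNA lists are described under other observations. So are the remaining cell type markers, which the plot of gene lists leaves out.

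The edgeR test was also run on simulated counts with known changes (19491 genes). Recovery was 80% for 2-fold and 95% for 4-fold changes, and 4.37% of its calls were false. Few genes were changed, none of them at a very low level, and no simulated library stood apart. These rates need not hold for the calls reported. Promoter sequences are RefSeq's, GRCh38.p14. Alternatives were RLE scaling, DESeq2 1.42.0, limma 3.58.1 on log2(FPKM + 1) and log2(FPKM + 0.1), other filters, a GC and length offset (values for 94.7% of rows from GENCODE 29), a replicate block, all 9 libraries in a fit and each library left out. Other tools were matplotlib 3.10.9, scipy 1.17.1, pandas 2.3.3, data.table (version 1.17.8), numpy 2.4.6, mgcv 1.9.3 and Python 3.11.15. Some members of the gene lists are counted in the lists but not reported here by name.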

Additional observations from a re-analysis of the deposited data

How the results depend on the processing

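Against 2594 higher and 2465 lower genes, the count fell to 1052 higher and 1136 lower with all 9 libraries in a single fit, to 1394 and 1465 with a mean FPKM of at least 5 (6677 genes tested) and to 576 and 852 with an absolute log2 fold change of at least 1. Leaving out a library gave 1899 to 2119 higher and 1786 to 2092 lower genes. Replicate numbers did not pair the libraries, since same-numbered libraries had correlations of -0.014, -0.011 and -0.014 in their deviations, and the replicate block gave 1831 higher and 1794 lower genes. RLE scaling gave 2575 and 2474, DESeq2 2958 and 2798, the GC and length offset 2893 and 2868, that offset with the replicate block 2353 and 2347, limma on log2(FPKM + 1) 2462 and 1822, on log2(FPKM + 0.1) 2456 and 1778, and no filter on low counts 2028 and 1893. With structural and mitochondrial rows left out the counts were 2591 and 2456. Over the named genes and all settings, 3685 values kept direction and side of the threshold, 255 lost the call and 2 reversed, none of which had been called: BGLAP (-0.31 to 0.0709 with a library left out, the highest without bare alloy replicate 2) and SPP1 (-1.11 to 0.00, the highest, 0.00477, without bare alloy replicate 1). The causes were not tested. The sign of the median changed in some settings for matrix proteases (-0.10, up to 0.19), the Notch list (0.29, and -0.48 at a mean FPKM of at least 5), and macrophage and nerve markers. With terms of 5 to 500 genes, 12 of the 36 named terms stayed named. Of list and term medians, 317 values moved by more than the replicate spread and 1003 did not. The NF-kB median of 2.13 was 1.53 by limma on log2(FPKM + 1) and 2.50 at a mean FPKM of at least 5. The histone median of -1.07 was -0.66 by that limma setting, and the Wnt median of -0.33 was -0.80 at a mean FPKM of at least 5. Of genes under 1 FPKM 3.94% were higher and 7.87% lower, and of those over 100 FPKM 31.0% and 26.5%; the part of depth in this was not tested.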

Other observations

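Some neighbouring genes moved together. Ordered along the chromosomes, the tested genes held 22 runs of at least 4 adjacent genes that were all higher on TiB2, the longest of 7, and 32 runs that were all lower, the longest of 8. The higher runs of 7 were the CXCL cluster of chromosome 4, from CXCL8 to CXCL2 (73740519 to 74099195, median log2 fold change 4.26), the region of IL19, IL20 and IL24 on chromosome 1 (206635536 to 206923247, median 2.64) and a region of chromosome 7 with KCNH2, NOS3 and the TMEM176 genes (150777973 to 151052756, median 1.85), of which 5 of 7 were kept without bare alloy replicate 1. IL1A, IL1B, IL37 and IL36G with CKAP2L made a run of 5 on chromosome 2 (median 3.62). The longest lower run lay on chromosome 8 from CRISPLD1 to PEX2 (74984505 to 77000947, 8 genes, median -2.55), and all 8 stayed lower without bare alloy replicate 1. Where such runs hold antisense or overlapping genes, as here ZFHX4 and ZFHX4-AS1, their reads cannot be told apart. A run of 5 histone genes on chromosome 6, from H2AC13 to H2AC15, had a median of -1.04, with 3 kept without bare alloy replicate 1.

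By class of gene, 16.5% of 14459 protein-coding genes were higher and 14% lower, while 3.33% of 3605 long non-coding RNAs were higher and 9.88% lower. Of the 11 nuclear long RNAs listed, 5 were lower (45.5%, against 12.2% of all genes) and 1 higher (9.09%, against 12.9%). NEAT1, the scaffold of paraspeckles, had 1502, 1677 and 1400 CPM on bare alloy and 607, 785 and 979 CPM on TiB2 (-0.95 ± 0.16, edgeR adjusted p = 0.0024), and KCNQ1OT1, an imprinted antisense RNA, fell by 1.25. Among immediate early genes 12 of 28 were higher (42.9%), led by IER3 (2.57 ± 0.15), and 4 lower (14.3%, near the 12.2% of all genes). The MAPK feedback inhibitors SPRY2 (-0.82) and SPRY4 (-0.57) were among the lower. Of 28 ATF4 and unfolded protein response genes 12 were higher (42.9%) and 4 lower (14.3%, again near the share of all genes). The lower ones included the serine synthesis enzymes PSAT1 (-0.58) and PHGDH (-0.43). Of 21 SRF and YAP targets 9 were lower (42.9%, against 12.2% of all genes) and 2 higher (9.52%, against 12.9%). The contractile genes TPM1 (-1.01) and MYL9 (-1.30) were among the lower. Of 21 glucocorticoid response genes 6 were higher and none lower, of 18 IGF axis genes 2 were higher and 5 lower, with IGF1R at -1.06, of 19 heat shock genes 3 were higher and 4 lower (2 and 2 without bare alloy replicate 1), and of 32 cytosolic ribosomal protein genes 6 were higher and none lower (3 higher without that library). The higher shares were 28.6% for glucocorticoid, 11.1% for IGF, 15.8% for heat shock and 18.8% for ribosomal genes, against 12.9% of all genes. The lower shares were 27.8% for IGF and 21.1% for heat shock genes, against 12.2%.

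Against 12.9% higher and 12.2% lower over all genes, 2 of 13 tested T cell markers were higher (IL7R, 1.15, and CD4, 1.5, a call lost whichever library was left out), 2 of 7 epithelial markers were higher (KRT8 and KRT18) with neither kept without bare alloy replicate 1, and 1 of 6 endothelial markers was lower, CDH5 (27.9, 20.5 and 26.4 CPM on bare alloy, 2.81, 3.71 and 2.79 CPM on TiB2, -3.01 ± 0.17). Chondrocyte markers held 1 lower of 5, SOX9 (-1.39), muscle markers 1 lower of 4, nerve markers 2 lower of 6 (1 without bare alloy replicate 1), and adipocyte and macrophage markers no call, by edgeR, of 5 and 8.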
